A study of Oryza sativa with 9 samples.

Results

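Heat shock transcription factors are the proteins that switch on chaperone genes when proteins misfold. They bind heat shock elements in the promoters of these genes as trimers, and in unstressed cells the chaperones themselves hold the activating members inactive. Plants carry a large family. Class A factors have an activation motif, class B factors lack it and often act as repressors or as partners of class A factors, and the A2 type, in Arabidopsis and tomato, is induced by heat and prolongs the response. Pollen development is sensitive to heat, and chaperone genes are active in anthers.

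The loci described here are LOC_Os03g46052, LOC_Os03g53340, LOC_Os04g48030, LOC_Os08g43334 and LOC_Os09g35790 of rice. They were taken because the authors' deposited tables of differential expression list them and describe them as heat shock transcription factors, so each listed ratio helped to choose them and is given as a description without a test. They make up 5 of the 727 loci and 10 of the 832 transcripts in the 3 tables. A sixth locus with that description, LOC_Os10g28340 with 4 transcripts, was not among the chosen loci and is used for comparison.

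Spikelets, the floral units of rice, were taken from field-grown BC14F2 plants, which come from repeated backcrossing and a selfing generation. The plants were homozygous f5-i/i (called the i homozygote from here on), heterozygous f5-i/j (the heterozygote) or homozygous f5-j/j (the j homozygote) at f5, a locus of male sterility in hybrids between rice subspecies. From each of these 3 genotypes 3 samples of polyA RNA were sequenced. Neither the stage of the spikelets nor whether each sample was a separate plant or a pool is stated in the labels. The question was which transcripts set the heterozygote apart from the homozygotes.

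Each value is the authors' mean of a genotype, in a unit not stated, and the values of single samples and their depth are unknown. No mean has an error, and no difference could be set against the spread between samples. The lowest mean is 0.01, read as no detection. Each of the 2071 means, when multiplied by the 3 samples, is a whole multiple of 0.01, as sums of values with this step are. If no single value lies below 0.01, a low mean therefore limits what any of its samples can have held. A whole spikelet is bulk tissue, so fewer cells of a type and less RNA per cell cannot be told apart. Of 14 tapetum and anther loci searched as markers, 1 was in the filtered tables, so the anther part of the tissue could not be checked against its markers.

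The descriptions rest on unequal matches. LOC_Os03g53340.3, with a coding length of 1131 bases, matched a RefSeq gene with the synonym HSFA2A, a class A factor, at 611 bits, or 1.62 bits per codon. LOC_Os08g43334.1, of 1851 bases, matched HSFB2B, a class B factor, at 876 bits, or 1.42 bits per codon. LOC_Os04g48030.1 and LOC_Os09g35790.2 matched proteins named by an identifier alone, at 0.902 and 1.12 bits per codon, and are given no class here. LOC_Os03g46052.1 stands apart. It has a coding length of 615 bases and matched the same HSFB2B gene at 77.0 bits, or 0.376 bits per codon. That gene lies on chromosome 8 and LOC_Os03g46052 on chromosome 3, so the description was carried over from another locus by a short or distant match, and a complete factor was not shown there.

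In the heterozygote the listed transcripts of these factors had low means. Against the i homozygote, 9 transcripts of 4 loci were listed and all 9 were lower in the heterozygote, where 46.7% of the 480 listed transcripts were lower. Against the j homozygote, 5 transcripts of 4 loci were listed and all 5 were lower, where 55.4% of 350 were lower. The same heterozygote means enter both comparisons, so they do not replicate each other. The members were selected on these ratios, and the counts are given as their makeup.

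**Figure D1:**
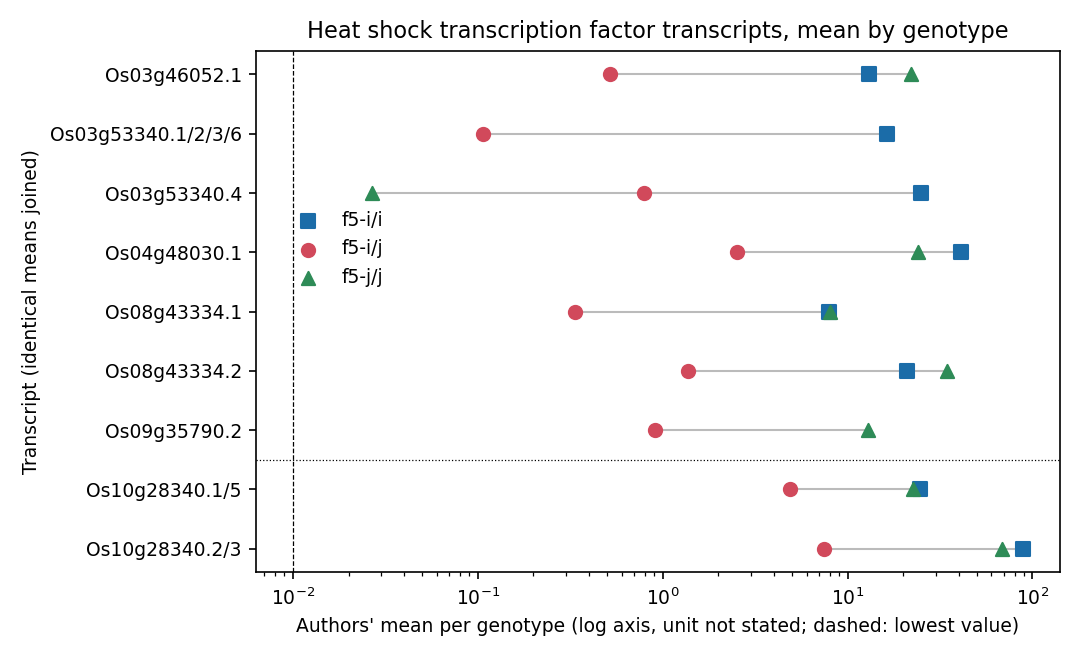
The authors' mean (log axis, unit not stated) of each heat shock transcription factor transcript in f5-i/i (squares), f5-i/j (circles) and f5-j/j (triangles), with transcripts of identical means joined and LOC_Os10g28340 below the dotted line. The heterozygote circle is the lowest point in each row apart from Os03g53340.4, where the j homozygote stands at 0.0267; Os03g53340.1/2/3/6 has no f5-j/j mean and Os09g35790.2 no f5-i/i mean.

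The locus matched to HSFA2A, LOC_Os03g53340, had 5 listed transcripts and the most extreme ratios among the 5 loci. The authors' mean of LOC_Os03g53340.3 was 16.3 in the i homozygote and 0.107 in the heterozygote, a 153-fold difference. LOC_Os03g53340.1, LOC_Os03g53340.2 and LOC_Os03g53340.6 have the same coding length of 1131 bases and identical means, so these 4 rows are a single measurement. No heterozygote sample can have exceeded 0.30 for them. By the log2 ratio of -7.26 in the authors' deposited table they tied for rank 7 among the 112 transcripts that were lower in the heterozygote than in the i homozygote with both means above 0.01. They were not listed in a table with the j homozygote, and their mean there is unknown.

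A shorter transcript of this locus, LOC_Os03g53340.4 with a coding length of 867 bases, had its lowest mean in the j homozygote. In the other member transcripts with 3 means the heterozygote was lowest. The authors' mean of LOC_Os03g53340.4 was 24.9 in the i homozygote, 0.793 in the heterozygote and 0.0267 in the j homozygote. The homozygotes thus differed by 934-fold. This was the single listed difference between homozygotes among the 10 transcripts, in a table of 421 transcripts of which 45.1% were higher in the i homozygote. The mean of the j homozygote allows no sample above 0.06, so the size of the fold rests on a value next to the lowest. The heterozygote mean was 29.8 times that of the j homozygote, which was not listed as a difference.

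Both kinds of LOC_Os03g53340 transcript were thus lower in the heterozygote than in the i homozygote. Summed over the 5 listed transcripts, the authors' means gave 90.2 in the i homozygote and 1.22 in the heterozygote, or 41.2 and 0.90 with identical means counted a single time. How the authors' counting divided reads between these transcripts is an estimate.

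LOC_Os08g43334, matched to the class B gene HSFB2B, had a pair of transcripts that were low in the heterozygote against both homozygotes. The authors' mean of the longer LOC_Os08g43334.1 was 7.91 in the i homozygote, 0.337 in the heterozygote and 8.06 in the j homozygote. The homozygotes had similar means, and the heterozygote was 23.5-fold and 23.9-fold below them. For LOC_Os08g43334.2, with a coding length of 1173 bases, the authors' mean was 21.0 in the i homozygote, 1.37 in the heterozygote and 34.6 in the j homozygote, so the heterozygote was 15.3-fold and 25.2-fold lower. No heterozygote sample can have exceeded 0.99 for LOC_Os08g43334.1 or 4.10 for LOC_Os08g43334.2. With both transcripts summed, the authors' means gave 28.9 in the i homozygote, 1.71 in the heterozygote and 42.7 in the j homozygote.

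LOC_Os08g43334.1 was the member nearest to the authors' limit for listing, a probability of 0.8. Its probability was 0.802 in the authors' deposited table against the i homozygote and 0.807 in that against the j homozygote. At the other end of the comparisons with the heterozygote, the probability in the authors' deposited table was 0.938 for the 1131-base transcripts of LOC_Os03g53340 and 0.892 for LOC_Os03g46052.1 against the j homozygote. Transcripts just under the limit were not analysed here.

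LOC_Os04g48030 had a single listed transcript and the highest heterozygote mean among the members. The authors' mean of LOC_Os04g48030.1 was 41.2 in the i homozygote, 2.52 in the heterozygote and 23.9 in the j homozygote. The heterozygote was 16.3-fold and 9.47-fold below the homozygotes, and none of its samples can have exceeded 7.55. The j homozygote had the lower homozygote mean here, and the higher one for LOC_Os08g43334.2 and LOC_Os03g46052.1, so the order of the homozygotes was not shared. These homozygote differences of up to 1.72-fold were not listed by the authors.

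LOC_Os09g35790 was listed against the j homozygote alone. The authors' mean of LOC_Os09g35790.2, with a coding length of 1245 bases, was 0.913 in the heterozygote and 12.8 in the j homozygote, a 14.1-fold difference. Its mean in the i homozygote is unknown. A member listed in 1 table and not in another is not shown to differ between the comparisons.

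LOC_Os03g46052.1, the transcript with the short match, had the largest ratio against the j homozygote among the 5 member transcripts listed there. Its authors' mean was 13.1 in the i homozygote, 0.517 in the heterozygote and 22.0 in the j homozygote, so the heterozygote was 25.3-fold and 42.6-fold lower. It ranked 10 among the 96 transcripts lower in the heterozygote than in the j homozygote with both means above 0.01. No heterozygote sample can have exceeded 1.53.

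A high mean leaves a wide range for its samples. For LOC_Os03g46052.1 the mean of 13.1 in the i homozygote could come from 3 similar samples or from a single sample of up to 39.3 with the others at 0.01, and the deposited means cannot tell these apart. For each listed difference of the members with the heterozygote, at least 1 homozygote sample lay above all 3 heterozygote samples. The same holds for any ratio above 3, so it is no property of these factors.

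As a share of the average of both homozygote means, the heterozygote mean was 2.94% for LOC_Os03g46052.1, 4.22% for LOC_Os08g43334.1, 4.94% for LOC_Os08g43334.2 and 7.75% for LOC_Os04g48030.1. These were 4 of the 5 member transcripts with all 3 means, and in them the heterozygote mean was the lowest, as it was in 28.3% of the 407 transcripts with 3 means. A transcript has 3 means where it is in at least 2 tables, so the rule largely fixes this count. The fifth was LOC_Os03g53340.4.

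LOC_Os10g28340, the sixth locus with this description, was lower in the heterozygote as well. A gene identifier in its deposited description belongs to a RefSeq gene with the synonym HSFA2C, and the description also names an acireductone dioxygenase, an enzyme of methionine salvage. The authors' mean was 24.6 in the i homozygote, 4.86 in the heterozygote and 22.6 in the j homozygote for LOC_Os10g28340.1 and LOC_Os10g28340.5, which are identical. For LOC_Os10g28340.2 and LOC_Os10g28340.3, also identical, the authors' mean was 89.2, 7.45 and 68.2 in the same order. The heterozygote was lower by 5.07-fold and 11.97-fold against the i homozygote and by 4.64-fold and 9.16-fold against the j homozygote. The members had ratios of 15.3 to 153-fold against the i homozygote and of 9.47 to 42.6-fold against the j homozygote.

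**Figure D2:**
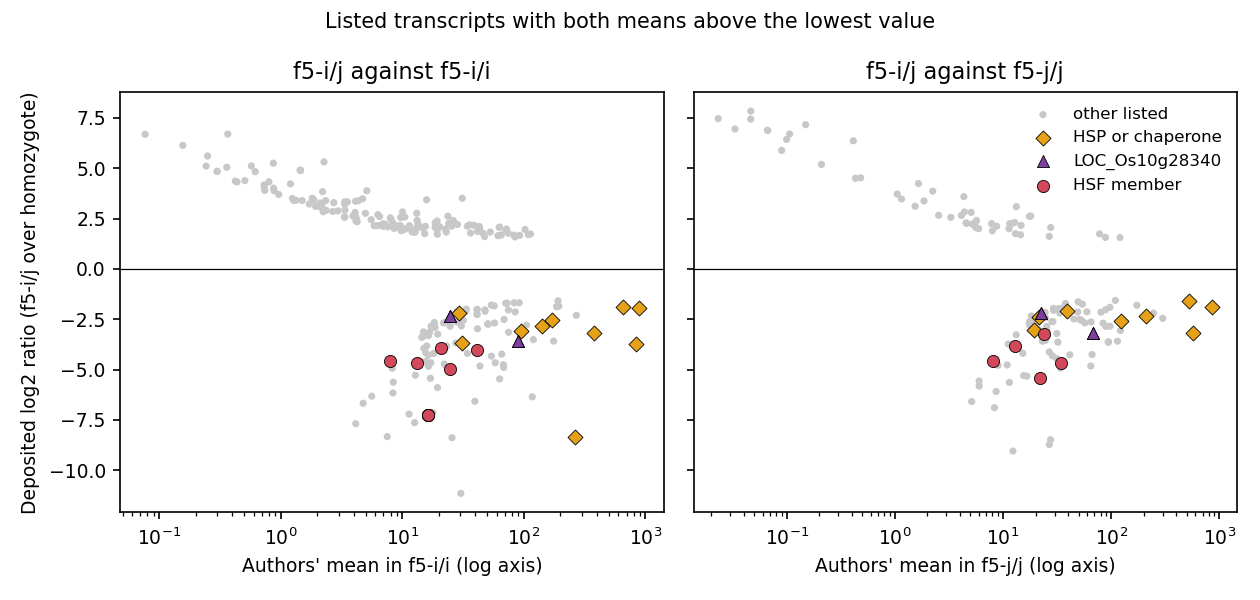
The deposited log2 ratio of f5-i/j over each homozygote (y axis) against the authors' mean in that homozygote (log x axis), for listed transcripts with both means above 0.01. The member transcripts (red) lie between -7.26 and -3.94 in the left panel and between -5.41 and -3.24 in the right panel, the triangles of LOC_Os10g28340 between -3.58 and -2.21, and the gap around 0 is the authors' filter.

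Heat shock proteins and other chaperones, some of which class A factors are known to activate, were found by words in the descriptions. Whether any listed one is a target of these factors was not tested. Most of the listed ones were lower in the heterozygote too. Against the i homozygote, 13 of 14 listed transcripts were lower and 1 was higher, from 11 loci, where 46.7% of all 480 were lower. Against the j homozygote, 12 of 13 were lower and 1 higher, from 12 loci, where 55.4% of all 350 were lower. The median ratio of the lower ones above 0.01 was 7.78-fold for 10 transcripts against the i homozygote and 5.17-fold for 8 against the j homozygote. For the factors the median was 31.4-fold over 9 transcripts, or 24.4-fold with the identical LOC_Os03g53340 rows counted a single time, and 23.9-fold over 5. For all listed lower transcripts above 0.01 it was 10.4-fold over 112 and 7.03-fold over 96. Transcripts of low mean were listed at larger ratios, as the plot of ratio against homozygote mean shows, so medians of groups at different levels are not on an equal footing.

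The 4 chaperone transcripts with the highest means were the same in both comparisons. HSP90, described as HtpG, keeps client proteins near their folded state, and LOC_Os08g39140.3 had an authors' mean of 886 in the i homozygote, 229 in the heterozygote and 858 in the j homozygote. HSP70 binds unfolded chains, and for LOC_Os03g16860.1 the authors' mean was 841, 63.9 and 575 in the same order. DnaJ co-chaperones deliver clients to HSP70, and for LOC_Os03g57340.1 the authors' mean was 653, 175 and 523. Small heat shock proteins of the HSP20 family keep unfolded proteins from clumping, and for LOC_Os02g52150.2 the authors' mean was 376, 40.9 and 209. All 4 had their lowest mean in the heterozygote. The single chaperone transcript that was higher in the heterozygote than in the i homozygote was another of the HSP90 locus, LOC_Os08g39140.1, with an authors' mean of 100.9 in the heterozygote and 0.01 in the i homozygote. Against the j homozygote it was the DnaJ transcript LOC_Os04g46390.3, with 10.95 and 0.01. LOC_Os12g06740.2, at 0.01 in the heterozygote, is counted through a further description as HtpG, its leading description being a SWI/SNF chromatin protein.

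Between the homozygotes the chaperones divided, with 2 of 5 listed transcripts, from 4 loci, higher and 3 lower in the i homozygote. Of all 421 listed there, 45.1% were higher. HSP90 transcripts of a single locus went both ways. The authors' mean of LOC_Os08g39140.2 was 265 in the i homozygote and 6.70 in the j homozygote, and that of LOC_Os08g39140.1 was 0.01 and 199.97. LOC_Os08g39140.3 of the same locus, with 886 and 858, was not listed as a difference between the homozygotes. A DnaJ A2 co-chaperone, LOC_Os04g46390.3, had an authors' mean of 93.8 in the i homozygote, 10.95 in the heterozygote and 0.01 in the j homozygote. Its order of genotypes is that of LOC_Os03g53340.4. For a DnaJ B6 co-chaperone, LOC_Os02g54130.3, the authors' mean was 7.42, 9.12 and 39.4 in the same order.

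The pattern of the member transcripts with 3 means was compared with that of the 159 other transcripts that had 3 means above 0.01. LOC_Os09g35790 lacks such a transcript. The median of the centred log2 means of the 5 member transcripts was 1.51 in the i homozygote, -2.86 in the heterozygote and 1.54 in the j homozygote. Each of these medians is the value of a LOC_Os08g43334 transcript, so the profile is that of this locus, and LOC_Os03g53340.4 lay at a distance of 7.85 from it. The nearest transcript, at a distance of 0.156 over these 3 means, was LOC_Os08g08970.1, described as a SET and MYND domain protein, with authors' means of 65.7, 3.49 and 66.6 in the same order. Next, at 0.407, was LOC_Os06g06490.2, described as stress-induced-phosphoprotein 1, a co-chaperone that links HSP70 and HSP90, with authors' means of 68.1, 2.29 and 64.8. A further transcript of that locus, LOC_Os06g06490.3, ranked 8 with authors' means of 17.0, 0.39 and 15.5.

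The remaining 7 of the 10 nearest transcripts had varied descriptions. They were the ribosome biogenesis protein ERB1 (LOC_Os07g25440.2), a terpene synthase (LOC_Os04g27670.1), the ubiquitin hydrolase L3 (LOC_Os01g37000.1), photosystem I subunit XI (LOC_Os12g23200.2), a proteolipid of the vacuolar proton pump (LOC_Os05g01560.2), LOC_Os02g55590.3 without description, and LOC_Os10g28340.2, tied with LOC_Os10g28340.3. A further transcript of the photosystem locus, LOC_Os12g23200.1, went the other way, with authors' means of 24.0 in the i homozygote, 114.8 in the heterozygote and 27.6 in the j homozygote. Distances over 3 means say little about a relation between genes. By the angle between patterns, 4 of these 10 transcripts were among the 10 nearest.

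**Figure D3:**
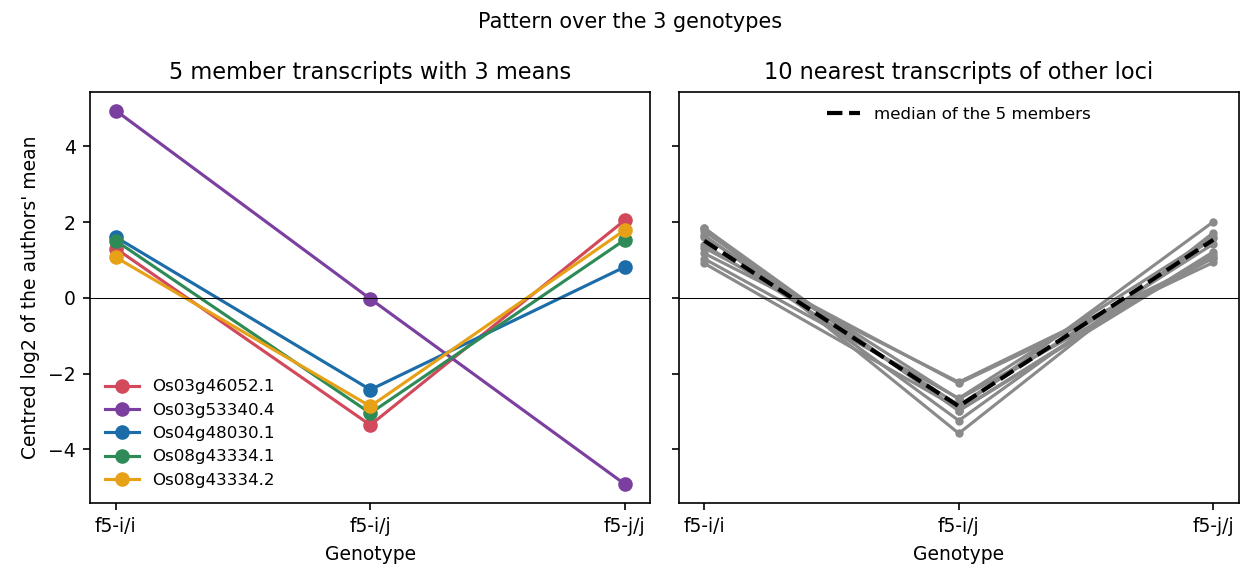
Centred log2 of the authors' means by genotype, in the left panel for the 5 member transcripts with 3 means and in the right panel for the 10 nearest transcripts of other loci (grey) with the median of the members (dashed). The members dip in f5-i/j apart from Os03g53340.4, which runs from 4.95 in f5-i/i down to -4.92 in f5-j/j.

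Transcripts of green tissue were listed in all 3 comparisons. Against the i homozygote, 24 listed transcripts had light-harvesting, photosystem or chlorophyll in their descriptions. Of these, 23 were higher in the heterozygote and 1, LOC_Os12g23200.2, was lower, where 46.7% of all 480 listed were lower. The authors' means of the 24 summed to 3841 in the heterozygote and 936 in the i homozygote, and 3 of them were at 0.01 in the i homozygote. Against the j homozygote 4 of 5 were higher in the heterozygote, with sums of 511 and 187 and 1 of them at 0.01 in the j homozygote. Of all 350 listed there, 55.4% were lower. Between the homozygotes all 8 listed ones were lower in the i homozygote, with sums of 236 and 974 and 2 of them at 0.01 in the i homozygote. Of all 421 listed there, 54.9% were lower. The part of the green tissue transcripts in the low means of the heat shock factors was not tested.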

How the data were processed

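PolyA RNA of 9 spikelet samples was sequenced on an Illumina instrument, per the labels' protocols. The submitters' processing notes name BWA, Bowtie and RSEM, with no version or role. The genome build, the normalization and the program behind the probabilities were not given in the sources used here. Deposited means are signal values that the authors averaged per genotype, per the file headers, and each column's genotype follows from the table names. The deposited log2 ratio was recomputed from the means without difference. The deposited probability is a score from 0.8 to 1 and not a p-value. The 3 deposited tables are filtered, and without single samples no model could be fitted.

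The loci and word lists were chosen with earlier results of these data known. All listed transcripts of the 5 loci are named, with the 10 nearest patterns (Euclidean distance of centred log2 means) and the 4 chaperone transcripts of highest mean per comparison. RefSeq names (assembly ASM3414082v1) come from gene identifiers in the descriptions. The chromosome of a matched gene was used, and no position within it. The distance and the limit per sample were tested on simulated data. Python 3.11.15 with pandas 2.3.3 was used. Alternatives were the probability, the ratio, the unit counted and the pseudocount.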

Additional observations from a re-analysis of the deposited data

How the results depend on the processing

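No paired analysis was possible because the tables hold means of each genotype and no single samples, and replicates could not be left out for the same reason. With a probability of at least 0.9, 4 heat shock factor transcripts were lower in the heterozygote than in the i homozygote, all of them identical rows of LOC_Os03g53340, and 0 were lower than in the j homozygote. For the chaperones this gave 3 lower and 1 higher in the heterozygote than in the i homozygote, and 2 lower and 1 higher than in the j homozygote. Between the homozygotes it gave 1 chaperone transcript lower and 2 higher in the i homozygote. How many of all listed transcripts reach 0.9 was not counted, so these counts have no share of the whole beside them. Over all listed transcripts the median probability was 0.841 against the i homozygote and 0.850 against the j homozygote. It was 0.845 between the homozygotes. Counted by locus, 4 of 4 heat shock factor loci and 10 of 11 chaperone loci were lower than in the i homozygote, beside 190 of all 427 listed loci. Between the homozygotes 2 of 4 chaperone loci were lower in the i homozygote, beside 203 of all 379. Without transcripts at 0.01, 10 of 10 chaperone transcripts were lower in the heterozygote than in the i homozygote, beside 112 of all 252. Against the j homozygote 8 of 8 were lower, beside 96 of all 147. Between the homozygotes 2 of 3 were lower in the i homozygote, beside 118 of all 207. Chosen after seeing the data, the addition of LOC_Os10g28340 raised the factors lower than in the j homozygote from 5 to 9, and counting identical means a single time gave 6 in place of 9 against the i homozygote, with a median log2 ratio of -4.61. No majority direction of the factors reversed, nor did that of the chaperones in the comparisons with the heterozygote. Between the homozygotes the chaperone majority did reverse. Over all listed transcripts 3 were lower and 2 higher in the i homozygote, against 1 lower and 2 higher with a probability of at least 0.9. The median log2 ratio of the members, -4.97 against the i and -4.58 against the j homozygote, was -3.85 and -2.86 with a pseudocount of 1 and -4.81 and -4.22 with 0.1. That of LOC_Os03g53340.4 between the homozygotes, 9.87, was 4.66 and 7.62. The nearest patterns by angle shared 4 transcripts with those by distance.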

Other observations

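A pair of chaperones of the endoplasmic reticulum was listed for the j homozygote. The authors' mean in the j homozygote was 17.6 for calnexin (LOC_Os04g32950.4) and 8.53 for calreticulin (LOC_Os07g14270.2), which help fold glycoproteins, and both were at 0.01 in the i homozygote and the heterozygote. The DnaJ B11 co-chaperone LOC_Os02g52270.2, whose mammalian namesake works in this compartment, had authors' means of 29.4 in the i homozygote and 6.53 in the heterozygote. Flower regulators of the MADS-box family were listed with 4 transcripts of 3 loci, in differing orders. LOC_Os02g49840.2 had authors' means of 39.5 in the i homozygote, 0.413 in the heterozygote and 16.6 in the j homozygote. LOC_Os02g49840.4 of the same locus was at 0.01 in the i homozygote and the heterozygote and at 4.64 in the j homozygote. The authors' mean of LOC_Os10g39130.2 was 31.8 in the i homozygote and 5.43 in the heterozygote, and that of LOC_Os01g66030.2 was 31.3 in the i homozygote and 5.98 in the j homozygote. For the single tapetum marker listed, C6 (LOC_Os11g37280.1), a lipid transfer protein, the authors' means were 33.8 in the i homozygote, 34.1 in the heterozygote and 0.413 in the j homozygote.

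The 1131-base transcripts of LOC_Os03g53340 and LOC_Os09g35790.2 each lack a homozygote mean, and transcripts with similar values show where the filter fell. For LOC_Os03g53340.3, 61 transcripts within 25% of its mean in the i homozygote were listed between the homozygotes, and among the 44 that were lower in the j homozygote the highest mean there was 2.91. Against the heterozygote, the 3 transcripts within 25% of its heterozygote mean were listed from 6.02 upward in the j homozygote. For LOC_Os09g35790.2 the corresponding means in the i homozygote were 2.12, over 24 transcripts, and 15.0, over 8 transcripts. These are values of other transcripts and no measurement of the members.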
